A study of Homo sapiens with 28 samples.

Results

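The binding sites of MYC and of JUND were compared with each other in GP5d cells, a colon adenocarcinoma line, after RNA interference against the cohesin subunit RAD21. Every row of both peak lists was used: 7264 MYC peaks and 12319 JUND peaks, together 19583 of the 393268 peaks in the 22 lists of the series. A MYC and a JUND peak that overlapped by at least 1 bp were called shared, and the others MYC-only or JUND-only. The study mapped transcription factors, cohesin and a histone mark by chromatin immunoprecipitation and sequencing (ChIP-seq), and asked how factor clusters relate to cohesin sites when RAD21 is depleted. It holds 28 libraries, of which 22 have peak lists: 11 targets after the RAD21 siRNA (siRAD21) and the same 11 after a neutral control siRNA. Both siRNAs were given at 50 nM for 72 h, and 5 µg of antibody was used per immunoprecipitation. The other 6 libraries were made with IgG.

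MYC is a basic helix-loop-helix leucine zipper protein that binds E-box DNA as a dimer with MAX and drives growth and biosynthesis genes. JUND is a basic leucine zipper protein of the AP-1 family, which binds DNA as a dimer with other JUN or FOS proteins and has its own, different recognition sequence. Cohesin is a ring-shaped complex that holds DNA loops. RAD21 and SMC3 are subunits of the ring, NIPBL loads it onto DNA, and CTCF is the DNA-binding protein at which much of it comes to rest. HNF4A, a nuclear receptor, and KLF5, a zinc finger factor, are regulators of intestinal epithelium, and H3K4me1 is a histone mark of enhancers and promoter flanks.

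Each target had 1 library per siRNA, so no comparison below could be tested across replicates. Shares are given with 95% intervals in brackets, exact (Clopper-Pearson) for a share and Wald for a difference, and these cover counting error only, over peaks that are not replicates. The siRAD21 MYC library held 9801218 tags after repeated tags were removed (26879136 before, 64% repeated), and the siRAD21 JUND library 15263937 (24786292 before, 38% repeated). Both were called against the same siRAD21 rabbit IgG library of 4101535 tags, as were all other siRAD21 targets except CTCF and RFX2, which had a goat IgG library. The sizes of the siRAD21 lists used beside MYC and JUND were 6068 peaks for NIPBL, 19752 for RAD21, 12548 for SMC3, 32196 for CTCF, 7082 for HNF4A, 1781 for KLF5, 4360 for REST, 1158 for RFX2 and 53581 for H3K4me1. The peak lists give no level of RAD21 itself. The RAD21 antibody gave 19752 peaks after siRAD21 and 36204 after control siRNA. A ChIP-seq peak averages over the culture, and fewer cells with the protein on a site cannot be told apart from less protein per cell.

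A few labels limit what the libraries can stand for. The titles and descriptions put all 11 siRAD21 libraries under the RAD21 siRNA, whereas the separate siRNA entry names RAD21 for the CTCF library and other, numbered names for the rest. The titles were followed. The H3K4me1 library is listed with an antibody known as one against histone H3 in general. The MYC antibody is known as a mouse antibody, whereas the title names rabbit and the peaks were called against rabbit IgG.

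After siRAD21, most MYC peaks lay at a JUND peak, and most JUND peaks lay away from MYC. Of the 7264 MYC peaks, 4451 (61.3% [60.1 to 62.4]) overlapped a JUND peak and 2813 did not. Of the 12319 JUND peaks, 4433 (36.0% [35.1 to 36.8]) overlapped a MYC peak and 7886 did not. The MYC majority depends on the longer JUND list and on the overlap rule: with the 7264 strongest JUND peaks, 48.6% of MYC and 47.9% of JUND peaks were shared, and with summits within 250 bp 41.5% of MYC and 24.5% of JUND peaks. Over the 138526 siRAD21 peaks of the 9 other targets, 12.4% overlapped a MYC peak and 19.4% a JUND peak. By target, the share at MYC ran from 5.44% (REST) to 45.3% (NIPBL), and at JUND from 8.58% (REST) to 63.3% (NIPBL). Overlap with JUND at the level of the MYC list was thus not particular to MYC. MYC peaks covered 0.382% of the effective genome used by the peak caller, and JUND peaks 0.698%. When peaks that touch were merged, 15067 regions resulted: 4368 shared, 2813 MYC-only and 7886 JUND-only. Nearly all shared regions were simple pairs, with 4227 (96.8%) made of 1 MYC and 1 JUND peak. The sharing was spread over the genome: by chromosome, 52.4% (chromosome 13) to 66.3% (chromosome 6) of MYC peaks were shared, and 30.3% (chromosome 21) to 40.1% (chromosome 4) of JUND peaks.

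Sharing increased with peak strength in both lists. The peak caller gives each peak a p-value, written here as strength, −10 × log10 p, with a lowest listed value of 50. Among MYC peaks with a strength of 50 to 75, 44.4% [42.8 to 46.1] were shared, and among the 115 with a strength of 400 or more, 94.8% [89.0 to 98.1]. Among JUND peaks the same classes gave 18.9% [17.9 to 20.0] and 95.1% [89.6 to 98.2] of 122 peaks. Between these ends each stronger class of either list had a higher share than the one before. MYC peaks of a strength of 150 to 200 were shared in 85.2% of cases, against 59.9% for JUND peaks of that strength. The MYC peaks were set against 12319 JUND peaks and the JUND peaks against 7264 MYC peaks. Strength also differs with library depth, and the part of either in this gap was not tested. Width gave the same order, although the 1 bp rule by itself favours overlap of wide peaks. The narrowest 1453 MYC peaks were shared in 35.3% and the widest 1452 in 77.8%, and the narrowest 2464 JUND peaks in 17.1% and the widest 2463 in 57.3%.

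**Figure D1:**
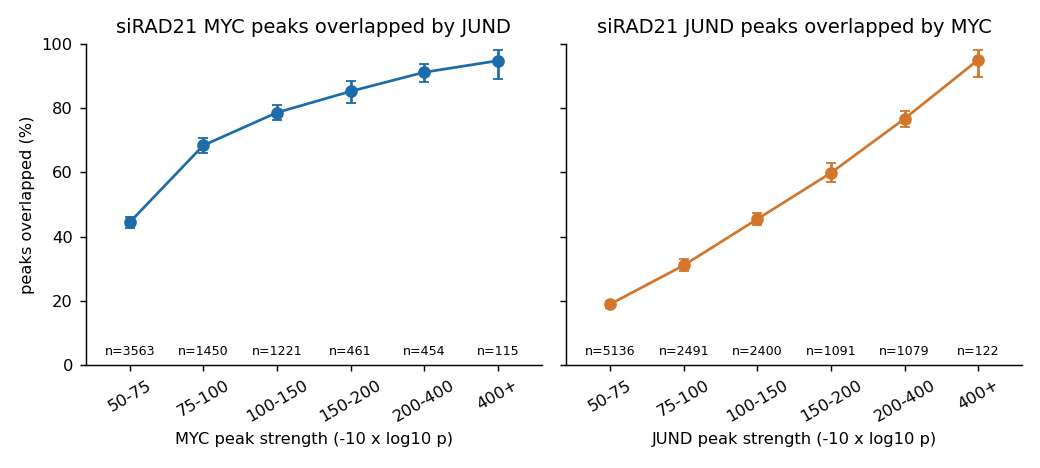
Share of siRAD21 MYC peaks overlapped by a JUND peak (left) and of siRAD21 JUND peaks overlapped by a MYC peak (right), in percent, by the strength of the peak in −10 × log10 p. Bars are exact 95% intervals for counting error and n is the number of peaks: both curves climb, from 44.4% to 94.8% for MYC and from 18.9% to 95.1% for JUND.

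A false discovery rate (FDR) under 5%, which the caller estimates by swapping ChIP and IgG, held for 936 MYC peaks (12.9%) and 718 JUND peaks (5.83%). In strength, these peaks stood at 157.5 or more for MYC and 242.6 or more for JUND, so the same FDR marks peaks of different strength in the 2 lists. Of the 936 MYC peaks, 842 (90.0%) overlapped some JUND peak, and of the 718 JUND peaks, 598 (83.3%) overlapped some MYC peak. Only 270 of each overlapped a peak of the other factor that itself passed, which is 28.8% of the MYC and 37.6% of the JUND peaks.

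At shared peaks the summits (the positions of highest tag pile-up) of the 2 factors lay close together, which the overlap rule in part sets. Overlapping peaks, with median widths of 1456 bp for MYC and 1671 bp for JUND, can seldom have summits far apart. Such closeness was not particular to this pair. Overlapping NIPBL summits lay a median of 124 bp from shared MYC and 127.5 bp from MYC-only summits. From a shared MYC summit to the nearest JUND summit the median distance was 123 bp, with quartiles of 48 and 353 bp. Within 50 bp lay 26.3% of the pairs, within 100 bp 44.4%, within 250 bp 67.8% and within 1000 bp 95.4%. The median was 133 bp for the 2038 shared MYC peaks whose weaker partner had a strength of 50 to 75, and 54.5 bp for the 22 pairs of 400 or more on both sides. Estimated fragments were 292 bp long in the MYC library and 250 bp in the JUND library, so distances below that length say little about separate sites.

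Most MYC-only and JUND-only peaks lay far from any called peak of the other factor. The nearest JUND summit was a median of 38601 bp from a MYC-only summit (quartiles 11982 and 106805 bp), and the nearest MYC summit 63950.5 bp from a JUND-only summit (quartiles 20681 and 168981 bp). Within 10000 bp, 21.9% of MYC-only and 14.8% of JUND-only summits had one. Within 1000 bp the shares were 1.35% and 0.938%, but the class rule largely sets these. Peaks that do not overlap, with median widths of 1071 and 1243 bp, can seldom have summits that close. Signal below the calling threshold was not examined. With no peak of the other factor within 1000 bp of the peak, there were 2592 MYC peaks (35.7% of the list) and 7490 JUND peaks (60.8%).

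**Figure D2:**
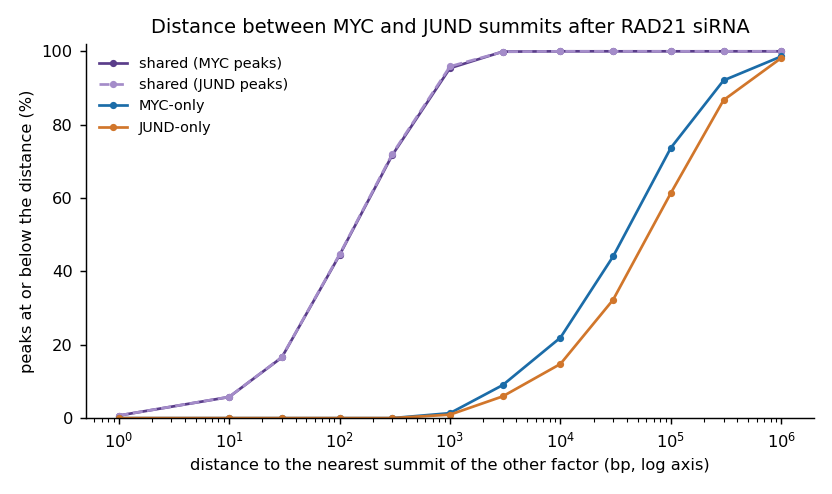
Share of peaks, in percent, whose nearest summit of the other factor lies at or below a distance in bp (log axis), for shared MYC, shared JUND, MYC-only and JUND-only peaks. The 2 shared curves lie on each other with medians of 123 and 121 bp. The MYC-only and JUND-only curves lie far to the right, with medians of 38601 and 63950.5 bp. The overlap rule that defines the classes by itself keeps shared summits near each other and the other summits apart.

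Shared peaks were wider, richer in tags and stronger than peaks of a single factor. The 1 bp rule itself favours wide peaks as shared, and its part in these differences was not tested. The median width was 1456 bp for shared and 1071 bp for MYC-only MYC peaks, and 1671 bp for shared and 1243 bp for JUND-only JUND peaks. Shared MYC peaks held a median of 35 tags, against 20 in MYC-only peaks. Shared JUND peaks held 57, against 33 in JUND-only peaks. The quartile ranges of tags overlapped in both lists: 23 to 51.5 for shared and 15 to 33 for MYC-only peaks, 37 to 86 for shared and 23 to 52 for JUND-only peaks. The median strength was 89.6 for shared and 62.5 for MYC-only peaks, and 119.6 for shared and 72.6 for JUND-only peaks.

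Between the factors, MYC peaks were narrower and held fewer tags. Over all peaks the median width was 1308 bp for MYC and 1379 bp for JUND, and the median count 29 tags for MYC and 40 for JUND. The MYC library was 0.642 times as deep, and per 1000000 library tags the medians were 2.96 for MYC and 2.62 for JUND. The quartile ranges, 1.84 to 4.69 for MYC and 1.70 to 4.26 for JUND, overlapped over most of their length. At the 4227 pairs of 1 MYC and 1 JUND peak, the MYC peak had a median of 0.907 times the width of its partner and was the wider one in 35.1%. Tags per 1000000 at these pairs were near even, with a median MYC over JUND ratio of 0.994 and quartiles of 0.756 and 1.30. The median MYC peak had 95.3% of its length inside the overlap, and the median JUND peak 84.1%. Taking as many of the strongest JUND peaks as there were MYC peaks put the order of tags per 1000000 the other way (ratio of medians 0.869).

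**Figure D3:**
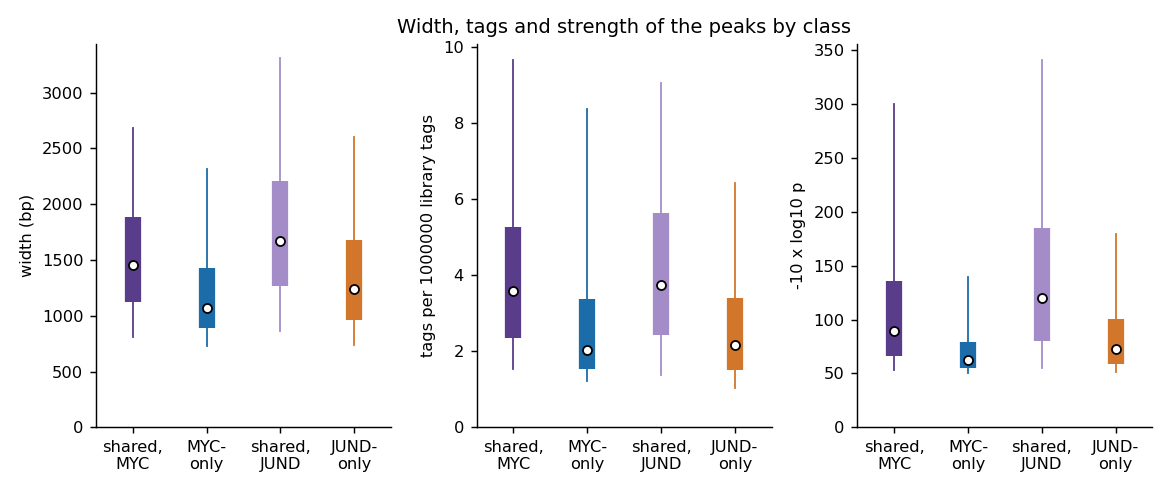
Width in bp, tags per 1000000 library tags and strength in −10 × log10 p of shared MYC, MYC-only, shared JUND and JUND-only peaks after siRAD21. Circles are medians, thick bars span the quartiles and thin lines the 5th to 95th percentile: the shared classes stand above the classes of 1 factor in all 3 panels (median strength 89.6 against 62.5 for MYC, 119.6 against 72.6 for JUND), and the ranges overlap.

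Single regions show the range of these classes, with coordinates in the hg18 build counted from 1. Shared regions were ranked by the lower of their MYC and JUND strengths, chromosome 8 left out, and the first was on chromosome 5 from 40868748 to 40872374. MYC had 160 tags and a strength of 1186 there, JUND 143 tags and 844, and the summits were 1 bp apart. Peaks of NIPBL, RAD21, SMC3, HNF4A, KLF5 and H3K4me1 lay there after siRAD21, whereas after control siRNA the overlapping peaks were those of NIPBL, H3K4me1, MYC and JUND. The next, on chromosome 3 from 23931809 to 23934960, had 131 MYC and 163 JUND tags with summits 45 bp apart. It held NIPBL, RAD21, SMC3, HNF4A and H3K4me1 peaks after siRAD21, and MYC and H3K4me1 peaks after control siRNA. On chromosome 13 from 26722693 to 26725255, summits 2 bp apart went with strengths of 859 for MYC and 522 for JUND, beside NIPBL, RAD21 and H3K4me1. All 5 shared regions that ranked highest by the lower strength had NIPBL and H3K4me1 peaks after siRAD21, and MYC and H3K4me1 peaks after control siRNA. Over all shared MYC peaks, 52.2% had a siRAD21 NIPBL and 94.2% a siRAD21 H3K4me1 peak, and 63.6% a control MYC and 83.4% a control H3K4me1 peak.

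The strongest MYC-only peak was on chromosome 7 from 44991482 to 44993530, with 207 tags, a strength of 790 and the nearest JUND summit 100591 bp away. KLF5 and H3K4me1 peaks lay there after siRAD21, and KLF5, H3K4me1 and MYC peaks after control siRNA. On chromosome 6 from 144205367 to 144207502, a MYC-only peak of 155 tags lay with NIPBL and H3K4me1. All 5 strongest MYC-only peaks had a MYC peak after control siRNA, against 41.2% of all MYC-only peaks. The strongest JUND-only peak was on chromosome 15 from 42367048 to 42369339, with 296 tags, a strength of 705 and the nearest MYC summit 92950 bp away. NIPBL, CTCF and H3K4me1 peaks lay there after siRAD21, and CTCF, RFX2 and H3K4me1 peaks after control siRNA. On the same chromosome from 56849921 to 56852266, a JUND-only peak of 104 tags lay with 6 targets: NIPBL, RAD21, CTCF, HNF4A, KLF5 and H3K4me1. None of the 5 strongest JUND-only peaks had a control JUND peak, and 1 had a control MYC peak. Over all JUND-only peaks, 13.6% had a control JUND peak and 27.3% a control MYC peak, so these 5 do not stand apart from their class.

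NIPBL set shared sites apart most clearly. Over the whole lists, 37.4% of MYC and 30.7% of JUND peaks had a siRAD21 NIPBL peak. Among MYC peaks, 52.2% [50.8 to 53.7] of the shared and 14.0% [12.7 to 15.3] of the MYC-only ones had one. Among JUND peaks, these were 52.7% of the shared and 18.4% of the JUND-only ones. The difference was 38.2 percentage points [36.3 to 40.2] against MYC-only and 34.3 [32.6 to 36.0] against JUND-only peaks. Within 5 strata of strength, equal in number of peaks, it was 29.5 points against MYC-only and 23.1 points against JUND-only peaks. Strength still varied within a stratum. MYC-only peaks held NIPBL less often than JUND-only peaks over all strengths, by −4.37 points [−5.91 to −2.83], and by −1.01 points [−2.53 to 0.514] within strata of strength. Where a NIPBL peak overlapped, its summit lay a median of 124 bp from the shared MYC summit and 116 bp from the shared JUND summit. Seen from NIPBL, 38.6% of its 6068 peaks lay at both factors, 6.61% at MYC alone, 24.7% at JUND alone and 30.1% at neither.

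RAD21, although the target of the siRNA, was found at shared sites more often than at sites of 1 factor. A siRAD21 RAD21 peak lay at 25.3% of all MYC and 21.4% of all JUND peaks, at 31.2% of shared and 15.9% of MYC-only MYC peaks, and at 31.4% of shared and 15.8% of JUND-only JUND peaks. Shared exceeded MYC-only peaks by 15.3 points, 11.5 within strata of strength and 9.40 with summits within 250 bp. Against JUND-only peaks these values were 15.7, 10.8 and 8.97 points. MYC-only and JUND-only peaks were not distinguishable by RAD21, with a difference of 0.116 points [−1.46 to 1.69]. NIPBL together with RAD21 lay at 19.8% of shared and 2.74% of MYC-only MYC peaks, and at 20.2% of shared and 3.92% of JUND-only JUND peaks. The partner of RAD21 also differed. RAD21 with CTCF lay at 16.2% of shared and 11.8% of MYC-only MYC peaks, whereas RAD21 without CTCF lay at 15.0% of shared and 4.05% of MYC-only ones. In the JUND list RAD21 with CTCF lay at 16.7% of shared and 10.6% of JUND-only peaks, and RAD21 without CTCF at 14.8% of shared and 5.15% of JUND-only ones. Of all RAD21 peaks, 7.01% held both factors and 84.3% neither.

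HNF4A followed the same order with a step between the single classes. It lay at 23.4% of all MYC and 22.1% of all JUND peaks: at 30.5% of shared and 12.1% of MYC-only MYC peaks, and at 30.6% of shared and 17.4% of JUND-only JUND peaks. Shared exceeded MYC-only peaks by 18.4 points, 15.8 within strata of strength and 9.60 with summits within 250 bp. Against JUND-only peaks these values were 13.3, 7.28 and 7.09 points. MYC-only peaks held HNF4A less often than JUND-only peaks, by −5.27 points [−6.74 to −3.81], and by −3.32 points within strata of strength. KLF5, whose list was the shortest of the 5, lay at 7.48% of all MYC and 6.57% of all JUND peaks. It was at 10.3% of shared and 3.06% of MYC-only MYC peaks, and at 10.4% of shared and 4.40% of JUND-only JUND peaks. Within strata of strength, shared exceeded MYC-only peaks by 5.39 and JUND-only peaks by 3.39 points. MYC-only minus JUND-only was −1.34 points [−2.12 to −0.562] for KLF5, and −0.555 points [−1.34 to 0.230] within strata of strength. HNF4A and KLF5 together lay at 5.26% of shared and 0.960% of MYC-only MYC peaks, and at 5.39% of shared and 1.43% of JUND-only JUND peaks. Among peaks with an FDR under 5%, shared minus JUND-only was 5.92 points [−1.37 to 13.2] for HNF4A and 2.25 points [−2.68 to 7.17] for KLF5, neither beyond counting error. The classes were redrawn there from passing peaks alone, so JUND-only peaks included those whose MYC partner did not pass.

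H3K4me1 was present at most peaks of every class. It lay at 85.2% of all MYC and 87.5% of all JUND peaks: at 94.2% of shared and 70.9% of MYC-only MYC peaks, and at 94.5% of shared and 83.6% of JUND-only JUND peaks. MYC-only peaks were the class most often without it, lower than JUND-only peaks by −12.7 points [−14.5 to −10.8] and by −8.93 points within strata of strength. With an FDR under 5% in both lists and the classes redrawn from those peaks alone, this difference was −1.15 points [−3.31 to 1.01]. Shared minus MYC-only was then 0.350 points [−2.35 to 3.06] and shared minus JUND-only −0.432 points [−3.08 to 2.21]. The redrawn classes were not distinguishable, but they are not the classes defined above. Of the 936 MYC peaks, 842 overlapped some JUND peak and 270 a passing one, and of the 718 JUND peaks 598 and 270. The redrawn single classes thus held many peaks called shared above. The mark comes in wide regions, of 2591 bp at the median over its whole list. The regions around factor summits were wider, but a wide region by itself holds a summit more often. A region around a shared MYC summit was 3899.5 bp wide at the median, around a MYC-only summit 3541 bp, and around a JUND-only summit 3974 bp. Counted once each, regions that overlapped peaks of both factors were 3330 bp wide at the median. Those with MYC alone were 3067.5 bp wide, and those with JUND alone 3266.5 bp. The summit of the factor lay off the summit of the mark, by a median of 763 bp at shared MYC, 561 bp at MYC-only and 640 bp at JUND-only peaks. When summits had to lie within 250 bp, the order of the classes turned, with 12.9% of shared and 18.0% of MYC-only MYC peaks, and 11.2% of shared and 17.1% of JUND-only JUND peaks.

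By overlap, shared peaks also stood above peaks of 1 factor for the 4 targets outside the 5 above. SMC3, the other ring subunit, lay at 15.8% of all MYC and 14.0% of all JUND peaks, with 19.1% of shared and 10.6% of MYC-only MYC peaks and 19.4% of shared and 10.9% of JUND-only JUND peaks. CTCF lay at 29.9% of all MYC and 26.3% of all JUND peaks, with 33.0% of shared and 24.9% of MYC-only MYC peaks and 33.6% of shared and 22.3% of JUND-only JUND peaks. CTCF was the one of the 9 targets for which MYC-only peaks exceeded JUND-only peaks beyond counting error, by 2.63 points [0.787 to 4.47], and by 0.921 points [−0.510 to 2.35] with summits within 250 bp. REST, a repressor of neuronal genes, lay at 3.29% of all MYC and 3.08% of all JUND peaks, and RFX2, a winged helix factor, at 2.34% of MYC and 2.21% of JUND peaks. REST was at 4.20% of shared and 1.85% of MYC-only MYC peaks, and RFX2 at 3.15% of shared and 1.07% of MYC-only ones. In the JUND list REST was at 4.44% of shared and 2.31% of JUND-only peaks, and RFX2 at 3.16% and 1.67%. With summits within 250 bp, shared minus JUND-only for RFX2 was 0.291 points [−0.0792 to 0.661], not beyond counting error.

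**Figure D4:**
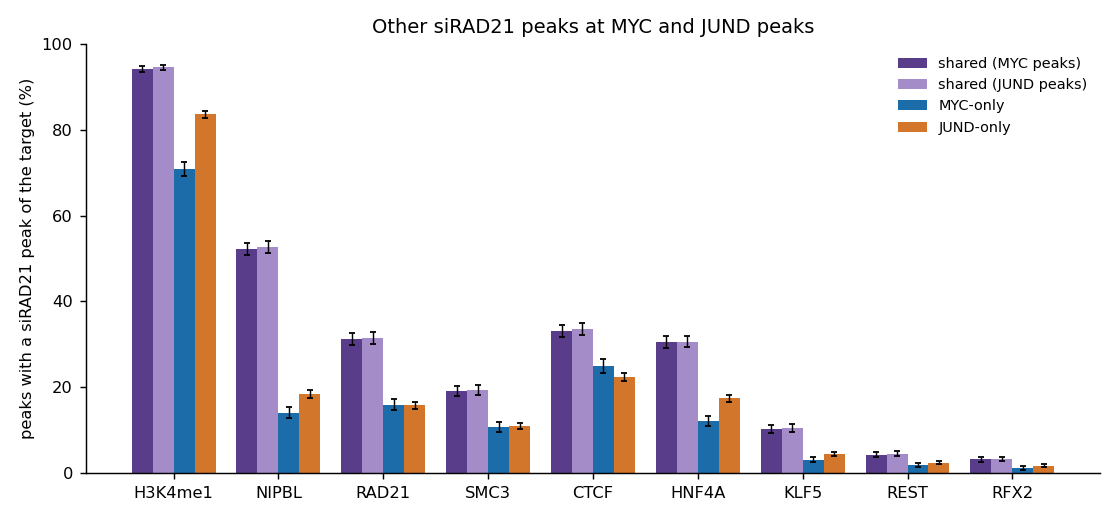
Share of shared MYC, shared JUND, MYC-only and JUND-only peaks, in percent, with an overlapping siRAD21 peak of each of 9 other targets (x axis). Bars carry exact 95% intervals for counting error: the shared classes exceed the classes of 1 factor for every target, most for NIPBL (52.2% against 14.0% and 52.7% against 18.4%).

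Counted per peak, shared MYC peaks held a mean of 2.18 of the 5 targets NIPBL, RAD21, HNF4A, KLF5 and H3K4me1, and MYC-only peaks 1.16. Shared JUND peaks held 2.20 and JUND-only peaks 1.395. None of the 9 targets lay at 1.46% of shared and 20.5% of MYC-only MYC peaks, or at 1.38% of shared and 10.2% of JUND-only JUND peaks. H3K4me1 alone of the 9 was found at 17.2% of shared, 32.6% of MYC-only and 38.5% of JUND-only peaks. At the other end, 6 or more of the 9 lay at 213 (4.79%) of the shared MYC peaks against 8 (0.284%) of the MYC-only peaks. In the JUND list they lay at 226 (5.10%) of the shared against 54 (0.685%) of the JUND-only peaks. All 5 of the named targets met at 91 (2.04%) shared MYC and 2 (0.0711%) MYC-only peaks, and at 94 (2.12%) shared JUND and 14 (0.178%) JUND-only peaks. The region on chromosome 19 from 11406456 to 11408583 was among the 5 shared regions with 8 targets, more than at any other shared region outside chromosome 8, which was not searched. MYC had 59 and JUND 78 tags there, with summits 26 bp apart.

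MYC peaks overlapped JUND more often after siRAD21 than after control siRNA, at 61.3% of 7264 siRAD21 peaks against 15.3% [14.7 to 16.0] of 13589 control peaks. For JUND the order was the other way, at 36.0% of 12319 siRAD21 peaks against 44.7% [43.3 to 46.2] of 4678 control peaks. The lengths of the lists enter both shares. With the 4678 strongest peaks of each list, 48.4% of MYC and 47.7% of JUND peaks were shared after siRAD21, and 20.2% of MYC and 20.4% of JUND peaks after control siRNA. The control lists were called against a deeper rabbit IgG library of 8916252 tags, the control JUND library held 7558614 tags, and no control JUND peak had an FDR under 5%. The part of these values in the difference was not tested.

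Most sites that both factors held after siRAD21 overlapped a MYC peak of control cells. Of all siRAD21 MYC peaks, 54.9% overlapped a control MYC peak and 9.60% a control JUND peak. Of all siRAD21 JUND peaks, 40.5% overlapped a control MYC peak and 13.3% a control JUND peak. Among shared MYC peaks, 53.5% [52.0 to 55.0] overlapped a control MYC peak alone, 2.47% a control JUND peak alone, 10.1% both and 33.9% neither. Among MYC-only peaks 57.8% overlapped neither and 37.3% control MYC alone. Among JUND-only peaks 66.0% overlapped neither, 20.4% control MYC alone and 6.62% control JUND alone. A siRAD21 JUND peak thus lay at a control MYC peak more often than at a control JUND peak in the JUND-only class too, at 27.3% against 13.6%. The control MYC list is also the longer one, at 13589 against 4678 peaks.

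Cohesin at these sites differed between the siRNAs. RAD21 peaks of siRAD21 cells lay at 31.2% of shared and 15.9% of MYC-only MYC peaks, as given above, whereas RAD21 peaks of control cells lay at 21.5% of shared and 21.9% of MYC-only ones. In the JUND list, siRAD21 RAD21 peaks lay at 31.4% of shared and 15.8% of JUND-only peaks, and control RAD21 peaks at 21.9% of shared and 22.4% of JUND-only ones. Over the whole lists, control RAD21 peaks lay at 21.7% of siRAD21 MYC and 22.2% of siRAD21 JUND peaks. These classes, drawn from the siRAD21 lists, thus hardly differed in control RAD21. The control cells' own classes did differ, with control RAD21 peaks at 48.6% of shared and 30.01% of MYC-only MYC peaks. In the control JUND list they lay at 48.1% of shared and 20.8% of JUND-only peaks. The RAD21 list was shorter after siRAD21 (19752 peaks, against 36204 after control siRNA). In the siRAD21 classes its share was still higher at shared sites and lower at sites of 1 factor than with control RAD21 peaks. Control SMC3 peaks were nearly as even over the siRAD21 classes as control RAD21 peaks. They lay at 26.5% of all MYC and 27.0% of all JUND peaks, 27.2% of shared and 25.3% of MYC-only MYC peaks, and 27.4% of shared and 26.8% of JUND-only JUND peaks. Control HNF4A peaks lay at 12.4% of all siRAD21 MYC and 15.6% of all siRAD21 JUND peaks, with 13.6% of shared and 10.6% of MYC-only MYC peaks. In the JUND list they lay at 14.0% of shared and 16.4% of JUND-only peaks, so shared peaks were not the richer class there. Control NIPBL peaks kept the order of the classes, with 25.3% of all MYC and 25.4% of all JUND peaks, 30.6% of shared and 17.0% of MYC-only MYC peaks, and 31.1% of shared and 22.2% of JUND-only JUND peaks. Control KLF5 peaks lay at 19.8% of all MYC and 17.9% of all JUND peaks, with 22.7% of shared and 15.2% of MYC-only MYC peaks, 22.9% of shared and 15.1% of JUND-only JUND peaks, above the siRAD21 KLF5 shares in each class. The KLF5 list held 1781 peaks after siRAD21 and 7791 after control siRNA. Control H3K4me1 peaks lay at 75.9% of all siRAD21 MYC and 79.4% of all siRAD21 JUND peaks, at 83.4% of shared MYC, 63.8% of MYC-only and 76.5% of JUND-only peaks. Control CTCF peaks lay at 26.8% of all siRAD21 MYC and 24.6% of all siRAD21 JUND peaks, with 28.2% of shared and 24.7% of MYC-only MYC peaks. Control RFX2 peaks lay at 3.73% of all siRAD21 MYC and 3.44% of all siRAD21 JUND peaks. Control REST peaks lay at 0.936% of all siRAD21 MYC and 0.950% of all siRAD21 JUND peaks, with 0.876% of shared and 1.03% of MYC-only MYC peaks.

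The siRAD21 peaks of cohesin and CTCF that held both MYC and JUND were those least often found in control cells. Of all 19752 siRAD21 RAD21 peaks, 86.3% overlapped a control RAD21 peak. The share was 39.2% [36.6 to 41.8] of the 1385 that held both factors, 71.6% of the 444 with MYC alone, 66.0% of the 1266 with JUND alone, and 92.1% [91.7 to 92.6] of the 16657 with neither. Both against neither differed by −52.9 points [−55.5 to −50.3], and by −49.5 points within strata of strength. SMC3, made with its own antibody and library, gave the same order. Of all its peaks 88.3% overlapped a control SMC3 peak: 52.7% with both factors, 82.0% with MYC alone, 75.3% with JUND alone and 92.4% with neither. The siRAD21 lists of SMC3, RAD21, MYC and JUND were called against 1 rabbit IgG library, of 4101535 tags. Their control lists had another, of 8916252 tags, and the part of these libraries in the differences was not tested. CTCF, which was called against the goat IgG library, gave 87.1% over all peaks, with 62.6% for both factors, 75.7% for MYC alone, 71.8% for JUND alone and 89.6% for neither.

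CTCF divided the RAD21 peaks further. Among RAD21 peaks with both factors, 52.2% also held a siRAD21 CTCF peak, against 84.0% of those with neither factor. With CTCF, 58.5% [54.8 to 62.1] of the 723 RAD21 peaks at both factors overlapped a control RAD21 peak, and without CTCF 18.1% [15.3 to 21.3] of 662. At neither factor, these shares were 97.5% of 13987 with CTCF and 64.2% of 2670 without. NIPBL peaks went along. Of the RAD21 peaks at both factors and without CTCF, 67.8% held a siRAD21 NIPBL peak, against 3.52% of those at neither factor and without CTCF.

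HNF4A and REST peaks followed the same order, and the other 4 targets did not. Of all siRAD21 HNF4A peaks 52.7% overlapped a control HNF4A peak: 32.9% with both factors, 53.1% with MYC alone, 50.4% with JUND alone and 59.9% with neither. Of all REST peaks 65.4% overlapped a control REST peak, 17.0% of the 182 with both factors and 69.7% of the 3931 with neither. That difference of −52.6 points was −32.3 points within strata of strength. Of all KLF5 peaks 45.1% overlapped a control KLF5 peak, 56.3% with both factors and 35.2% with neither, and of all RFX2 peaks 23.7%, 48.5% with both and 16.1% with neither. For NIPBL the share was 33.7% over all peaks, 36.5% with both and 28.9% with neither, a difference of 7.59 points that was −2.83 points [−5.80 to 0.150] within strata of strength. For H3K4me1 it was 82.3% over all peaks, 85.7% with both and 81.0% with neither, a difference of 4.70 points that was −3.42 points [−4.43 to −2.40] within strata of strength.

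**Figure D5:**
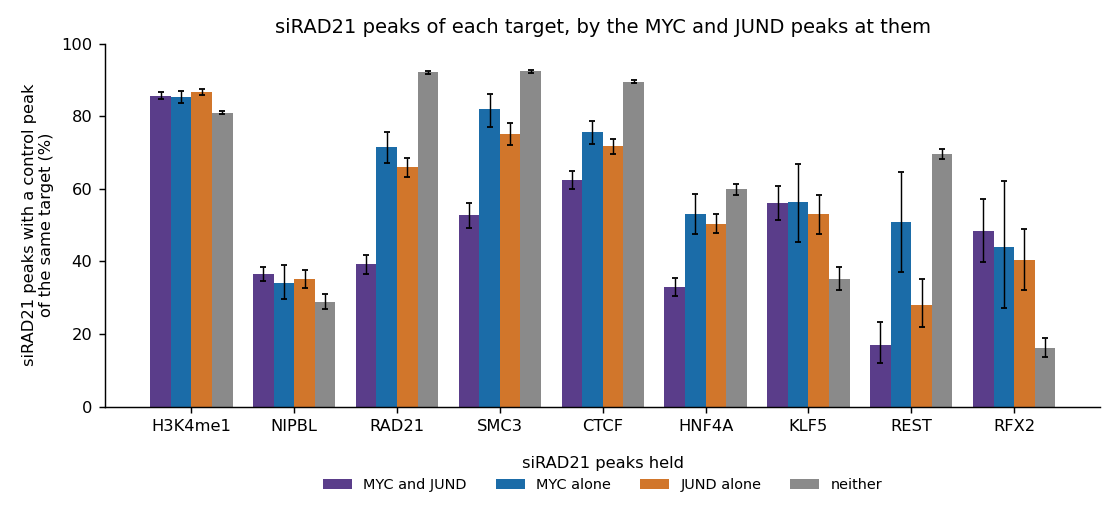
Share of the siRAD21 peaks of each target (x axis), in percent, that overlap a control siRNA peak of the same target, for peaks that hold MYC and JUND, MYC alone, JUND alone or neither after siRAD21. Bars carry exact 95% intervals for counting error: RAD21 (39.2% with both, 92.1% with neither), SMC3, CTCF, HNF4A and REST peaks with both factors stand lowest, and KLF5 and RFX2 peaks with both stand above those with neither.

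The control cells' own classes were compared in the same way. Of all control MYC peaks 41.5% held a control NIPBL peak, and of all control JUND peaks 46.5%. NIPBL lay at 72.6% of shared and 35.9% of MYC-only MYC peaks of control cells, and at 72.1% of shared and 25.8% of JUND-only JUND peaks. HNF4A lay at 24.0% of all control MYC and 29.1% of all control JUND peaks, with 42.1% of shared and 20.7% of MYC-only MYC peaks. RAD21 lay at 32.9% of all control MYC and 33.0% of all control JUND peaks, with 48.6% of shared and 30.01% of MYC-only MYC peaks. In the control JUND list RAD21 lay at 48.1% of shared and 20.8% of JUND-only peaks. SMC3 lay at 39.1% of all control MYC and 37.9% of all control JUND peaks, with 56.3% of shared and 36.0% of MYC-only MYC peaks. KLF5 lay at 26.1% of all control MYC and 25.0% of all control JUND peaks, with 41.1% of shared and 23.4% of MYC-only MYC peaks. H3K4me1 lay at 86.1% of all control MYC and 80.5% of all control JUND peaks, with 93.3% of shared, 84.7% of MYC-only and 70.8% of JUND-only peaks. CTCF lay at 26.7% of all control MYC and 18.3% of all control JUND peaks, with 23.2% of shared and 14.4% of JUND-only JUND peaks, whereas the MYC list of control cells had the other order. After siRAD21 CTCF lay at 33.0% of shared and 24.9% of MYC-only MYC peaks, whereas in control cells it lay at 24.7% [22.9 to 26.6] of shared and 27.1% [26.3 to 27.9] of MYC-only ones.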

How the data were processed

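The labels' protocols describe formaldehyde cross-linked GP5d cells, sonicated chromatin and 1 library per target and siRNA. The submitters' processing notes name CASAVA 1.4, BWA, MACS 1.4 and the hg18 build, and the file headers name MACS 1.4.0rc2 with 33 bp tags, an effective genome of 2.75e+09 bp, a 300 bp band width and 1e-05 as the p-value cutoff. Per the file headers, the authors' deposited lists give each peak's position, summit offset, tag count, score (−10 × log10 p), fold enrichment ratio against IgG and FDR in percent. The last column has no header of its own. It was read as the FDR because the number of values under 5 equals the labelled number in all 22 lists. Peak values are the authors' own and differ with depth.

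Every row was used, and no list was filtered or called again. Overlaps needed 1 bp. Distances run between summits. Tags were also scaled per 1000000 library tags. Shares have exact Clopper-Pearson intervals, and differences were also computed as Mantel-Haenszel averages within 5 strata of strength or width. The strata are equal in number of peaks by rank, so strength or width still varies within each. No p-value was computed, since each group had 1 library. Alternatives were summits within 250 bp, overlap of at least 50% of both peaks, FDR under 5%, strength of at least 100, equal numbers of the strongest peaks, and leaving out regions with 6 or more targets. The mean number of targets without H3K4me1 was added after the data were seen. Regions were named by a fixed rule: the 5 shared regions with the highest lower one of their MYC and JUND strengths, the 5 strongest MYC-only and JUND-only peaks with no peak of the other factor within 1000 bp, and the 5 shared regions with most targets, none on chromosome 8. The compared lists, classes and targets were chosen with earlier results of these data known. The overlap functions were tested on simulated intervals. Python 3.11.15, numpy 2.4.6, pandas 2.3.3, scipy 1.17.1 and matplotlib 3.10.9 were used. Gene names and sequences were not used here.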

Additional observations from a re-analysis of the deposited data

Results flagged for a closer look

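The numbers of peaks of the 2 factors moved in opposite directions between the siRNAs. MYC had 7264 peaks after siRAD21 and 13589 after control siRNA, a ratio of 0.535, with 1.02 times the tags after repeated tags were removed. Repeated tags made up 64% of the siRAD21 and 29% of the control MYC library. An FDR under 5% held for 12.9% of the siRAD21 and 100% of the control MYC peaks. The rabbit IgG library held 4101535 tags after siRAD21 and 8916252 after control siRNA. JUND had 12319 peaks after siRAD21 and 4678 after control siRNA, a ratio of 2.63, with 2.02 times the tags. Each number comes from 1 library, and the difference between the factors was not tested. The part of library depth, repeated tags and IgG depth in either ratio was not tested.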

How the results depend on the processing

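No paired analysis was possible because each target had 1 library per siRNA, and for the same reason no replicate could be left out. The share of shared MYC peaks (61.3%) was 41.5% with summits within 250 bp, 54.1% with an overlap of 50% of both peaks, 28.8% with an FDR under 5%, 48.6% with equal numbers of the strongest peaks and 59.7% without the densest regions. The share of shared JUND peaks (36.0%) was 24.5%, 31.9%, 37.6%, 47.9% and 34.9% in the same order, and 29.6% at a strength of at least 100. The median summit distance (123 bp) was 115 bp with the 50% overlap, 100.5 bp with the FDR and 109 bp at a strength of at least 100. The MYC over JUND ratio of median tags per 1000000 (1.13) was 1.23 at a strength of at least 100 and 0.869, the other direction, with equal numbers. The ratio of widths (0.949) was 0.875 with the FDR, 0.974 at a strength of at least 100 and 0.809 with equal numbers.

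MYC-only minus JUND-only peaks changed as follows, in percentage points, within strata of strength, within strata of width and with the FDR. H3K4me1 gave −8.93, −8.91 and −1.15, HNF4A −3.32, −3.61 and −14.5. NIPBL gave −1.01 within strata of strength and −1.59 within strata of width, KLF5 −0.555 within strata of strength and −5.46 with the FDR, and RAD21 −4.48 with the FDR. With summits within 250 bp, H3K4me1 reversed to 0.920, and shared minus MYC-only and shared minus JUND-only H3K4me1 to −5.05 and −5.90. With the FDR, shared minus JUND-only H3K4me1 reversed to −0.432. The mean number of the 5 targets at shared minus MYC-only peaks (1.03) was 0.812 within strata of strength, 0.840 within strata of width, 0.446 by summits, 0.842 with the FDR, 0.895 without the densest regions and 0.792 without H3K4me1. Shared minus JUND-only (0.802) was 0.511, 0.622, 0.369, 0.565, 0.709 and 0.693 in the same order. Without the densest regions or without H3K4me1 the mean falls by construction, and with an FDR under 5% only 936 MYC and 718 JUND peaks remain. The FDR classes were redrawn from these peaks alone, so their single classes held many peaks that overlapped a peak of the other factor that did not pass. For the other shifts the cause was not tested. Of 50 differences between shared and single classes by target and setting, 47 kept their sign, all but the 3 H3K4me1 values above. With the FDR, the intervals of H3K4me1 in both lists and of HNF4A and KLF5 in the JUND list included 0. The shallow IgG library and the single library per target limit every value.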
